A study of Saccharomyces cerevisiae with 27 samples.

Results

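The noncoding RNA genes of Saccharomyces cerevisiae that collected reads in libraries selected with oligo(dT) are described here. They were taken from the gene count table as the entries whose identifier was neither a systematic protein-coding name, nor a mitochondrial Q0 name, nor a Ty element, and whose mean raw count over the 27 libraries was 20 or more. This gave 115 genes out of 413 noncoding entries and 7122 entries in all. They were thus chosen by their mean count, so their overall level is a description and is not tested. The 115 genes were 31 of 47 C/D box snoRNAs, 28 of 29 H/ACA box snoRNAs, 42 of 299 tRNA genes, 3 of 6 spliceosomal snRNAs, both RNase P and RNase MRP RNAs, the signal recognition particle RNA, the telomerase RNA, 6 of 11 long noncoding RNAs and 1 of 16 rRNA entries. The spliceosomal, RNase P, RNase MRP, signal recognition particle and telomerase RNAs, 7 in all, are called the structured RNAs below.

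All strains were BY4741 derivatives. The study compared WT, C719A and G906D, named for the form of ALA1 that each carried on a single-copy plasmid in place of the deleted chromosomal gene (ala1Δ). ALA1 encodes alanyl-tRNA synthetase (AlaRS). The C719A change removes proofreading of mischarged tRNA, and G906D lowers the charging of tRNA with alanine. Log-phase cultures in YPD at 30 °C were sampled at 0 h, or were moved to 37 °C for 1 or 2 h, with 3 libraries (A, B and C) in each of the 9 groups. The mutant strains were made by plasmid shuffling with LEU2-marked plasmids. The 3 libraries of a group are biological replicates in the study's description.

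Small nucleolar RNAs guide the modification and cleavage of ribosomal RNA. The C/D class, bound by the methyltransferase Nop1, directs 2'-O-methylation, and the H/ACA class, bound by the pseudouridine synthase Cbf5, directs pseudouridylation. The spliceosomal snRNAs remove introns, RNase P matures the 5′ ends of tRNAs, RNase MRP acts in ribosomal RNA and mRNA processing, SCR1 is the RNA of the signal recognition particle, and TLC1 is the template of telomerase. Most of these mature RNAs carry no long poly(A) tail. In yeast nuclei the TRAMP complex adds short tails to precursors and to RNAs bound for the nuclear exosome, and a longer adenylated form of TLC1 is known. A value here is therefore the amount that oligo(dT) selection recovered, which need not follow the amount of mature RNA. In these bulk cultures a change spread over all cells and a change in some of them also cannot be told apart.

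The 27 libraries held 14471528 to 23057641 counts (median 17523615). Levels below are normalized CPM (counts scaled to library size, with TMM factors), which are comparable between libraries for 1 gene but not between genes of different length. A gene is called changed when its adjusted p was under 0.05 in the quasi-likelihood test of edgeR, adjusted by Benjamini-Hochberg over 6386 genes, all 115 noncoding genes included. A log2 fold change is given with its standard error (SE) from 3 libraries against 3. WT enters all comparisons of a mutant with WT at its time, and each 0 h group enters both heat comparisons of its strain, so comparisons that share a group are not independent. The WT libraries lettered A stood apart in the share of counts on the 115 genes. At 0 h this was 0.392% in WT A against 0.216% and 0.255% in WT B and C, at 1 h 0.155% against 0.111% and 0.105%, and at 2 h 0.0806% against 0.116% and 0.114%. Results that depend on these libraries are given with and without them.

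The range of mean raw counts was 30.3 to 765.3 for C/D snoRNAs, 57.9 to 1508 for H/ACA snoRNAs, 182.3 to 1958 for the structured RNAs, 28.3 to 779.1 for long noncoding RNAs and 20.2 to 391.1 for tRNA genes. The median was 191.9 for H/ACA snoRNAs and 510.4 for the structured RNAs against 40.9 for tRNA genes. Just inside the threshold lay tP(UGG)N2 (20.2) and tV(AAC)L (21.8), and just outside it tV(CAC)D, tM(CAU)P and tH(GUG)M (19.9 each), tF(GAA)G (19.4), tA(AGC)H and snR79 (19.0 each) and tE(UUC)J (18.2). Per length, the highest median deposited FPKM values were 263.0 for the H/ACA snoRNA snR11, 254.5 for tF(GAA)H1 and 192.7 for tL(CAA)C. In total 107 of the 115 genes, including 34 of the 42 tRNA genes, were matched to the R64 annotation.

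The 4 snoRNAs on which the results turn are printed here from the R64 genome (RefSeq), 5′ to 3′ on the sense strand. In snR128 (chrX:139566-139691, minus strand), snR69 (chrXI:364776-364876, plus strand) and snR48 (chrVII:609584-609696, plus strand) the capitals mark the C box motif TGATGA and the D box motif CTGA. In the H/ACA snoRNA snR49 (chrXIV:716120-716284, plus strand) they mark the ACA box near the 3′ end. snR128 and snR49 had the deepest falls in WT at 2 h, snR69 was the snoRNA that rose, and snR48 was among the highest in G906D relative to WT.
snR128: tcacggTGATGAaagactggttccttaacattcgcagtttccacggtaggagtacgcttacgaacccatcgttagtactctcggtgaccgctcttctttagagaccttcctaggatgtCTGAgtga
snR69: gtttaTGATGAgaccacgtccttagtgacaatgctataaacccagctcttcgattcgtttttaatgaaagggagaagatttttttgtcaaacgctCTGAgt
snR48: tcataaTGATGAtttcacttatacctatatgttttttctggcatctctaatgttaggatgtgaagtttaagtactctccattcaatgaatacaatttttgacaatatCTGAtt
snR49: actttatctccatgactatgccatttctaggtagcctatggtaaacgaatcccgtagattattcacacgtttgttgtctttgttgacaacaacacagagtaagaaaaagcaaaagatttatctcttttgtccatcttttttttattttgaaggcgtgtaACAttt

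The boxes were searched for on both strands of each gene. TGATGA lay in the first 20 bases of 23 of 31 C/D snoRNAs on the sense strand and of none on the antisense strand, against 1.48% and 0.71% of 6475 R64 genes. CTGA lay in the last 20 bases of 29 of 31 on the sense strand and of 1 on the antisense strand, against 9.96% and 4.06% of R64 genes. ACA lay in the last 6 bases of 15 of 28 H/ACA snoRNAs on the sense strand and of none on the antisense strand, against 1.45% and 7.37%. These shares describe the letters at the annotated ends, and a gene without a match may hold a variant box.

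At 37 °C most snoRNAs fell in each strain. In WT at 2 h, 26 of 28 H/ACA snoRNAs (median log2 fold change -2.03) and 26 of 31 C/D snoRNAs (median -1.77) fell and 1 C/D snoRNA rose. In 52 of the 59 snoRNAs the 3 libraries at 2 h did not overlap the 3 at 0 h. Over the 115 noncoding genes, 12 rose and 73 fell in WT at 2 h with a median of -1.20, against a median of 0.02 for all genes, of which 69.6% were called (35.7% higher and 33.9% lower). At 1 h in WT, 11 rose and 62 fell with a median of -0.91, beside 61% of all genes called (30.8% higher and 30.2% lower).

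The deepest fall in WT at 2 h was that of snR128, a C/D snoRNA also known as U14 that is required for processing of the small-subunit rRNA. It held 25.7, 12.5 and 12.5 CPM in WT libraries A, B and C at 0 h, 1.99, 2.05 and 0.835 CPM at 1 h and 0.910, 1.05 and 0.942 CPM at 2 h, so that every heated library was below every library at 0 h, by 17.4-fold at 2 h (log2 fold change -4.12 ± 0.42, adjusted p = 6.59e-09, edgeR's quasi-likelihood test, Benjamini-Hochberg). In C719A it was 14.9, 9.24 and 6.92 CPM at 0 h and 1.23, 1.30 and 0.430 CPM at 2 h, and in G906D 22.3, 20.8 and 17.3 CPM and 2.78, 1.45 and 1.22 CPM. The fall was -3.36 ± 0.43 in C719A and -3.46 ± 0.40 in G906D on the log2 scale, again with no overlap. Next in WT came snR49, an H/ACA snoRNA, with 109.5, 69.3 and 50.6 CPM in WT at 0 h and 3.99, 5.15 and 5.96 CPM at 2 h, a 15.2-fold fall (log2 -3.93 ± 0.25, adjusted p = 6.06e-12, edgeR's quasi-likelihood test). It fell by 3.19 in C719A and by 3.63 in G906D on the log2 scale, where it fell further than snR128. The H/ACA snoRNA snR44, which lies in an intron of RPS22B, went from 135, 69.0 and 72.3 CPM to 3.99, 7.98 and 8 CPM in WT, a 13.8-fold fall. snR86, the H/ACA snoRNA with the most counts, went from 367, 183 and 199.9 CPM to 23, 32.4 and 32.4 CPM. It fell by 3.09 in WT, by 2.30 in C719A and by 2.77 in G906D on the log2 scale.

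A single snoRNA, the C/D snoRNA snR69, was called higher at 2 h in every strain. It held 3.52, 2.83 and 3 CPM in WT at 0 h, 4.22, 5.72 and 6.68 CPM at 1 h and 8.65, 9.07 and 8.89 CPM at 2 h. All heated WT libraries were above those at 0 h, and the rise at 2 h was 2.83-fold (log2 1.5 ± 0.17, adjusted p = 2.94e-08, edgeR's quasi-likelihood test, Benjamini-Hochberg). In C719A it went from 4.82, 4.98 and 5.25 CPM to 7.52, 7.49 and 7.86 CPM, and in G906D from 3.04, 4.66 and 3.69 CPM to 6.94, 7.61 and 7.47 CPM. These rises were 0.60 ± 0.16 and 0.95 ± 0.17 on the log2 scale. The rise in C719A was smaller than that in WT by 0.90 on the log2 scale (adjusted p = 0.00444 for the interaction in edgeR's quasi-likelihood test).

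In C719A, 16 of the 115 genes rose and 55 fell at 2 h (median -0.54, with 67.1% of all genes called, 34.8% higher and 32.3% lower), and 9 rose and 64 fell at 1 h (median -0.84, with 66% of all genes called, 33.9% higher and 32% lower). In G906D, 20 rose and 61 fell at 2 h (67% of all genes called, 35% higher and 32% lower), and 13 rose and 63 fell at 1 h (71.4% of all genes called, 37.6% higher and 33.8% lower). With library size alone as the scaling, these splits were 26 higher and 36 lower in C719A at 2 h and 16 and 52 at 1 h, and in G906D 31 and 53 at 2 h and 26 and 53 at 1 h. The H/ACA snoRNAs fell at 2 h in 22 of 28 cases in C719A (median -1.26) and 26 in G906D (median -1.90), and the C/D snoRNAs in 20 of 31 cases in C719A (median -0.97) and 24 in G906D (median -1.33). At 1 h the H/ACA medians were -1.34 in WT, -1.62 in C719A and -1.92 in G906D. At 2 h 50 genes were called lower in every strain, namely 22 H/ACA and 20 C/D snoRNAs, 5 tRNA genes, 2 structured RNAs and 1 long noncoding RNA. Called higher in every strain were 8, namely snR69 and 7 tRNA genes. The share of all genes called in every strain was not counted, so these counts are a description.

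**Figure D1:**
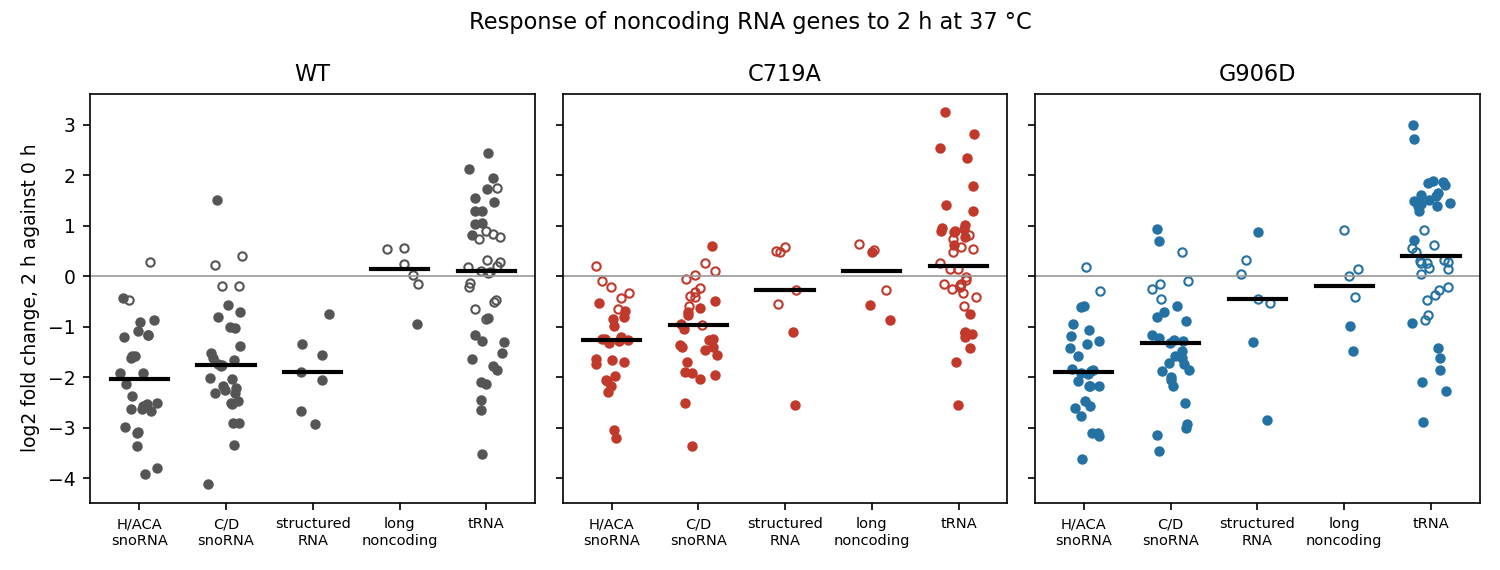
Log2 fold change at 2 h against 0 h of each noncoding RNA gene in WT, C719A and G906D, by class. Filled points are genes called in edgeR's quasi-likelihood test, open points are not called, and bars are class medians. Of the 42 tRNA genes, 3 passed the count threshold only through the libraries at 0 h. Most H/ACA snoRNAs lie below 0 in each strain, with medians of -2.03 in WT, -1.26 in C719A and -1.90 in G906D, while the tRNA medians are 0.10, 0.21 and 0.39.

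For 6 snoRNAs that lie in introns, the snoRNA and its host mRNA were compared at 2 h in WT. The log2 fold change was -3.79 for snR44 and -2.39 for its host RPS22B, -2.53 for snR18 and -2.21 for EFB1, and -2.31 for snR38 and -1.91 for TEF4. For snR54 it was -2.17 against -1.61 for IMD4, for snR39 -2.51 against -2.10 for RPL7A, and for snR191 -2.62 against -0.97 for NOG2. All 6 snoRNAs and all 6 hosts fell in WT. RPS22B and RPL7A encode ribosomal proteins and EFB1 and TEF4 encode translation elongation factors. In C719A the value for snR39 was -0.78 and that for RPL7A -1.40, and in G906D they were -1.22 and -1.48. Reads from an unspliced host transcript would also be counted on the snoRNA, and their part was not tested.

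snoRNAs that are processed from a shared precursor did not all have the same values. snR190 is transcribed together with snR128, and it held 2.92, 1.75 and 3.56 CPM in WT at 0 h and 2.07, 6.06 and 2.72 CPM at 2 h, so that its groups overlapped. Its log2 fold change at 2 h was 0.41 in WT (adjusted p = 0.391, edgeR's quasi-likelihood test), -0.38 in C719A and -0.45 in G906D, none of them called, beside -4.12, -3.36 and -3.46 for snR128. In the cluster of snR41, snR70 and snR51, the value in WT was 0.21 for snR41 (not called) and -0.57 for snR70 (adjusted p = 0.019 by the same test). In the cluster of snR57, snR55 and snR61, snR57 fell by 1.39 and snR61 by 1.51 on the log2 scale.

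The mRNAs of the proteins that carry or process these RNAs were read from 9 lists of 66 genes. All 8 snoRNP core protein mRNAs fell at 2 h in each strain, with medians of -1.83 in WT, -1.59 in C719A and -1.18 in G906D beside all-gene medians of 0.02, 0.03 and 0.04. CBF5, the pseudouridine synthase of H/ACA particles, fell by 2.42, 1.68 and 1.13 on the log2 scale. Of all genes at 2 h, 35.7% were called higher and 33.9% lower in WT. The shares were 34.8% and 32.3% in C719A and 35% and 32% in G906D. Of 13 nuclear exosome mRNAs, 1 rose and 4 fell in WT (median -0.12), 10 fell in C719A (median -0.39) and 6 fell in G906D (median -0.11). Of 5 TRAMP mRNAs, 3 fell in WT, and in each mutant 1 rose and 2 fell. The 6 signal recognition particle protein mRNAs fell in 6 cases in WT (median -0.59), 5 in C719A and 6 in G906D. Of 11 RNase P and MRP protein mRNAs, 2 rose and 6 fell in WT (median -0.32), 5 rose and 5 fell in C719A, and 3 rose and 6 fell in G906D. The 9 snoRNP assembly mRNAs were split, with 4 higher and 4 lower in WT, 2 and 4 in C719A, and 4 and 3 in G906D. Of 7 genes of 3′ end and cap processing, 5, 4 and 3 fell in WT, C719A and G906D. PAP1 of this list rose in WT (0.38) and G906D (0.275). The termination list was split in each strain. NRD1 rose by 0.88, 0.25 and 0.64 in WT, C719A and G906D, and PCF11 by 0.50, 0.315 and 0.325. SEN1 was called lower, at -0.69, -0.28 and -0.23, and NAB3 rose in G906D alone (0.74). Of the telomerase protein mRNAs, EST2 rose by 0.56, 0.71 and 0.70. EST1 fell in WT (-0.25), and EST3 rose in C719A (0.32) and fell in G906D (-0.35).

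The structured RNAs were lower in the mutants before heat. At 0 h, 6 of 7 were called lower in C719A (median -1.23) and 6 of 7 in G906D (median -1.21), and none was higher. LSR1, the U2 spliceosomal RNA, held 318, 146 and 245 CPM in WT, 69.8, 52.0 and 55.4 CPM in C719A and 59.7, 67.9 and 46.7 CPM in G906D. Every mutant library was below every WT library, by 4-fold in C719A (log2 -2 ± 0.35, adjusted p = 5.37e-05, edgeR's quasi-likelihood test) and by 4.06-fold in G906D (log2 -2.02 ± 0.36, adjusted p = 3.25e-05, edgeR's quasi-likelihood test). SCR1 held 375, 193 and 338 CPM in WT, 100.3, 91.8 and 80.4 CPM in C719A and 156, 106 and 78.1 CPM in G906D, again with no overlap, and the log2 fold changes were -1.73 ± 0.44 and -1.41 ± 0.44. snR17a, which encodes the U3 snoRNA of early rRNA cleavage and is counted here with the C/D snoRNAs, held 189, 71.7 and 114 CPM in WT, 37.1, 35.4 and 34.9 CPM in C719A and 54.4, 43.8 and 37.1 CPM in G906D. Its log2 fold changes were -1.80 ± 0.29 and -1.47 ± 0.29. It shares sequence with its paralog snR17b and overlaps IRC13 on the same strand, so the assignment of its reads is uncertain. The U6 RNA and 2 other spliceosomal entries were below the count threshold.

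The RNase MRP RNA NME1 held 110.4, 50.3 and 56.7 CPM in WT, 38.3, 22.4 and 22.8 CPM in C719A and 35.6, 30.6 and 27.5 CPM in G906D, and the RNase P RNA RPR1 78.7, 63.7 and 74.2 CPM, 48.1, 35.1 and 32.7 CPM and 30.5, 33.4 and 24.5 CPM. The log2 fold changes were -1.39 and -1.21 for NME1 and -0.90 and -1.29 for RPR1, and neither RNA had a mutant library within the WT range. The U4 RNA snR14 fell by 1.23 in C719A and by 0.77 in G906D on the log2 scale. The U1 RNA snR19 fell by 1.21 in G906D, while in C719A its value was -0.54 (adjusted p = 0.0815, edgeR's quasi-likelihood test). TLC1, the gene with the most counts of all 115, held 472, 283 and 295 CPM in WT, 212, 164 and 186 CPM in C719A and 321, 285 and 276 CPM in G906D. It fell in C719A (log2 -0.90), while its G906D libraries overlapped those of WT (log2 -0.25, adjusted p = 0.213, edgeR's quasi-likelihood test). Library WT A was the highest WT library at 0 h for all the RNAs of these paragraphs. Without it, 6 structured RNAs were still lower in C719A (median -0.95) and 5 in G906D (median -1.08). The one lost in G906D was snR14, at a log2 fold change of -0.59 (adjusted p = 0.0702, edgeR's quasi-likelihood test).

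At 2 h the strains were closer. All 7 structured RNAs fell in WT between 0 h and 2 h (median -1.89), while 2 fell in C719A (median -0.28), and in G906D 2 fell and 1 rose (median -0.45). The call for snR14 in WT was lost without WT 0 h A (-0.57) or WT 2 h A (-0.58). LSR1 held 30.1, 74.5 and 86.8 CPM in WT at 2 h, 91.7, 72.5 and 86.4 CPM in C719A and 90.5, 112 and 119.5 CPM in G906D, so that WT libraries B and C overlapped C719A, library A was below both mutants, and G906D was above WT. From 0 h to 2 h its log2 fold change was -1.89 ± 0.35 in WT, 0.50 ± 0.35 in C719A (adjusted p = 0.207, edgeR's quasi-likelihood test) and 0.88 ± 0.35 in G906D. The call in G906D (adjusted p = 0.0298, edgeR's quasi-likelihood test) was lost without any 1 of 4 libraries, namely G906D 0 h A, 0 h C, 2 h B and 2 h C, with values of 0.75 to 0.90. The difference in heat response from WT was 2.39 ± 0.49 in C719A and 2.77 ± 0.50 in G906D on the log2 scale (adjusted p = 0.000569 and 0.000295 for the interactions in edgeR's quasi-likelihood test). SCR1 held 33.2, 116 and 67.5 CPM in WT at 2 h, 129.7, 103 and 148 CPM in C719A and 115, 72.9 and 46.3 CPM in G906D, and the groups overlapped. Its interaction was 2.54 ± 0.62 for C719A (adjusted p = 0.00245) and 1.52 ± 0.61 for G906D (adjusted p = 0.075, not called), both in edgeR's quasi-likelihood test.

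The interaction was called for 6 of the 7 structured RNAs in C719A (median 1.33) and for 4 in G906D (median 1.37), all of them higher relative to the WT response. In C719A the calls for RPR1 (1.03) and snR19 (1.06) were lost without WT 0 h A (0.96 and 0.93) or WT 2 h A (0.71 and 0.76), and also without C719A 0 h B or C719A 2 h C, and that for RPR1 without C719A 0 h C. In G906D the calls for NME1 (1.37) and RPR1 (1.12) were lost without WT 0 h A (0.93 and 1.05), and that for RPR1 also without WT 2 h A (0.80), G906D 0 h C (1) or G906D 2 h B (1.09). TLC1 was the structured RNA not called in either. It fell at 2 h in every strain, from 0 h levels above to 37.1, 49.1 and 52.7 CPM in WT, 30.5, 33.1 and 32.2 CPM in C719A and 42.5, 37.0 and 42.9 CPM in G906D. Its log2 fold changes were -2.92 ± 0.19, -2.55 ± 0.19 and -2.85 ± 0.19, with no overlap between 0 h and 2 h in any strain. NME1 also fell in every strain, by 2.67 in WT, 1.10 in C719A and 1.30 in G906D on the log2 scale.

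**Figure D2:**
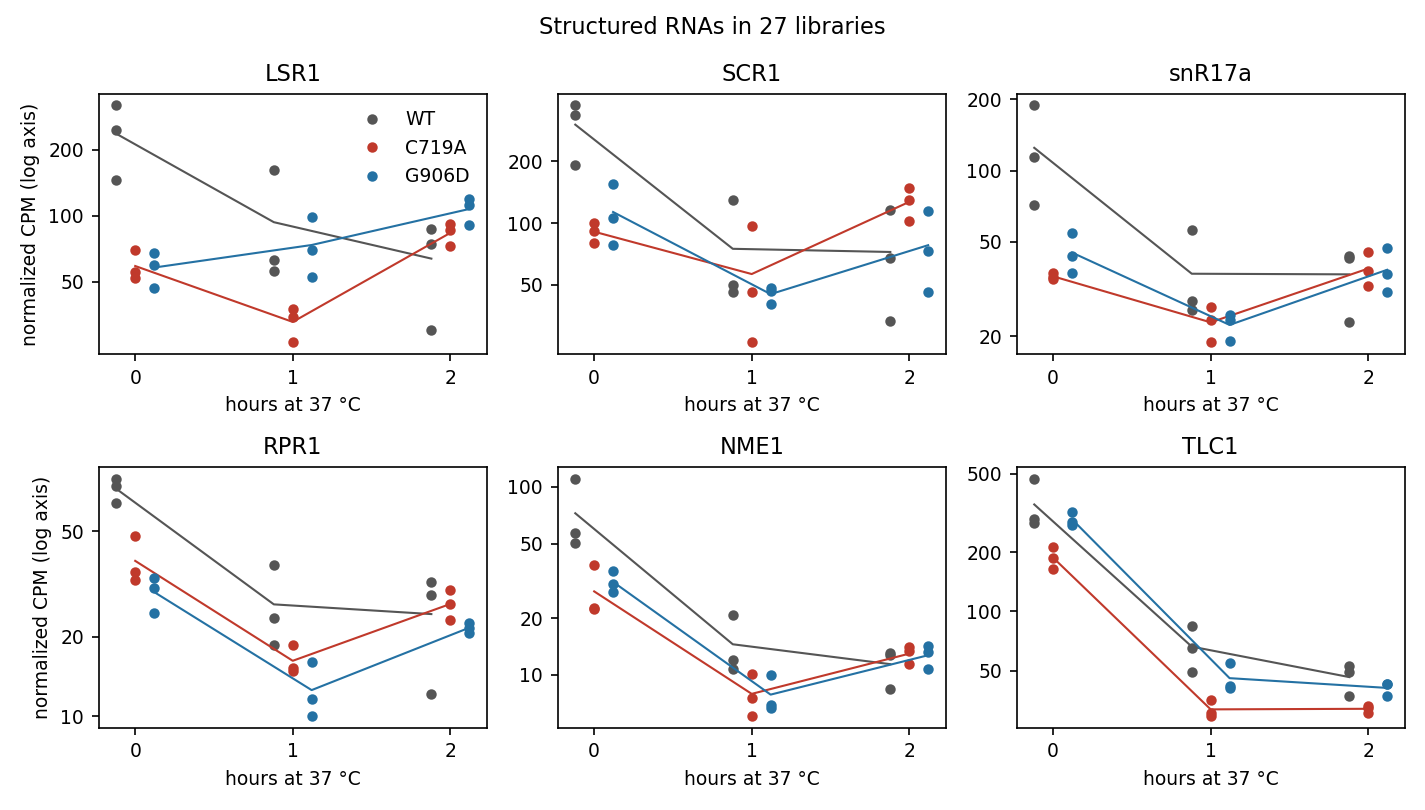
Normalized CPM (log axis) of LSR1, SCR1, snR17a, RPR1, NME1 and TLC1 by hours at 37 °C in WT, C719A and G906D. Points are libraries and lines join group means. At 0 h the WT libraries of LSR1 span 146 to 318 CPM and lie above all mutant libraries, which span 46.7 to 69.8 CPM, and at 2 h the groups are close.

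Over all 115 genes, the 2 h heat response of C719A differed from that of WT in 33 cases, 31 of them higher and 2 lower, with a median difference of 0.46, beside 36.7% of all genes called. The 33 were 11 C/D and 10 H/ACA snoRNAs, 6 structured RNAs and 6 tRNA genes. In G906D there were 14, 13 higher and 1 lower, with a median difference of 0.25, beside 23.3% of all genes called. Both shares of noncoding genes, 28.7% and 12.2%, were below those of all genes, whereas the higher cases were 31 of 33 and 13 of 14 against 18.6% higher and 18.2% lower, and 12.7% and 10.6%, of all genes. snR30, an H/ACA snoRNA needed for rRNA cleavage rather than modification, held 223, 93.2 and 104 CPM in WT at 0 h and 11.6, 17.2 and 19.8 CPM at 2 h, and in C719A 68.9, 43.8 and 51.4 CPM and 24.8, 22.6 and 24.0 CPM. It fell by 3.11 in WT and by 1.20 in C719A on the log2 scale, and the difference was 1.92 ± 0.38 (adjusted p = 0.000393, edgeR's quasi-likelihood test). In G906D the difference was 0.65 ± 0.38 (adjusted p = 0.222, edgeR's quasi-likelihood test). The count in C719A was 24 without WT 0 h A (19 higher and 5 lower) and 20 without WT 2 h A (19 higher and 1 lower). The 10 H/ACA cases dropped to 3 to 5 higher without any 1 of 6 libraries, namely WT 0 h A, WT 2 h A, WT 2 h C, C719A 0 h B, C719A 0 h C and C719A 2 h C. The 10 higher C/D cases were 6 without WT 0 h A. Without WT 0 h B the tRNA genes called went from 5 higher and 1 lower to 5 higher and 8 lower in C719A, and from 5 higher and none lower to 4 higher and 4 lower in G906D. Without WT 0 h A the median difference over the 115 genes was 0.35 in C719A and 0.05 in G906D, with -0.21 for H/ACA snoRNAs in G906D.

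At 0 h the snoRNAs were mostly lower among the calls in C719A and mostly higher in G906D. Against WT, 14 H/ACA snoRNAs fell and 1 rose in C719A (median -0.60), whereas 2 fell and 5 rose in G906D (median 0.09). Of the C/D snoRNAs, 7 fell and 1 rose in C719A (median -0.26), and 4 fell and 11 rose in G906D (median 0.17). Over the 115 genes, 15 were higher and 29 lower in C719A (median -0.18, with 53.7% of all genes called, 27% higher and 26.7% lower). In G906D 30 were higher and 16 lower (median 0.15, with 64.1% of all genes called, 30.9% higher and 33.2% lower). With library size alone the G906D split was 17 higher and 24 lower. Without WT 0 h A, 6 H/ACA snoRNAs were lower and 2 higher in C719A (median -0.26), and 13 were higher and none lower in G906D (median 0.51). The C/D median in G906D was then 0.42, and the medians over the 115 genes were -0.09 in C719A and 0.38 in G906D. Without C719A 0 h A, 12 C/D snoRNAs were lower in C719A. snR30 was 68.9, 43.8 and 51.4 CPM in C719A at 0 h and 159, 137 and 135 CPM in G906D, and its log2 fold change against WT was -1.36 ± 0.26 in C719A and 0.03 ± 0.25 in G906D. The whole C719A group lay below both WT and G906D, which overlapped each other. These are each mutant against a shared WT group, and the mutants were not tested against each other.

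At 1 h, 13 genes were higher and 29 lower in C719A (median -0.22, with 35.8% of all genes called, 17.3% higher and 18.4% lower). In G906D 20 were higher and 9 lower (median 0.01, with 31.2% of all genes called, 16.3% higher and 15% lower). With library size alone the G906D split was 18 higher and 15 lower. In C719A the lower genes were 12 H/ACA and 10 C/D snoRNAs, 6 structured RNAs and SRG1. This count rested on single libraries, since without WT 1 h A 8 genes were higher and 8 lower, of which 1 was an H/ACA snoRNA, 5 were C/D snoRNAs and 1 was a structured RNA. Without C719A 1 h C 9 were higher and 14 lower, with 3 H/ACA snoRNAs and 3 structured RNAs among the lower ones. Without C719A 1 h A or B the H/ACA snoRNAs called lower were 6 and 7. At 2 h, 27 genes were higher and 3 lower in C719A (median 0.26, with 56.5% of all genes called, 27.5% higher and 28.9% lower). In G906D 37 were higher and 5 lower (median 0.50, with 65.1% of all genes called, 31.9% higher and 33.2% lower). In C719A 16 of the 27 were tRNA genes, 6 C/D and 5 H/ACA snoRNAs. Without C719A 2 h C, 17 were higher and 2 lower, and 1 H/ACA snoRNA was left among the higher ones, and without WT 2 h A none was. In G906D the 37 were 18 tRNA genes, 11 C/D and 7 H/ACA snoRNAs and 1 long noncoding RNA.

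Few genes were called against WT at all times. In C719A, 7 tRNA genes were higher at 0, 1 and 2 h, 4 of which had a mean count under 20 in the WT libraries, and SRG1, TLC1 and snR11 were lower. For TLC1 at 2 h the log2 fold change was -0.54 (adjusted p = 0.0171, edgeR's quasi-likelihood test) and the call was lost without WT 2 h B (-0.49), WT 2 h C (-0.43) or C719A 2 h A (-0.50). For snR11, an H/ACA snoRNA with 145, 102 and 99.7 CPM in WT and 89.2, 62.5 and 67.8 CPM in C719A at 0 h, the value was -0.66 at 0 h, -0.49 at 1 h and -0.44 at 2 h. Its calls at 1 and 2 h were each lost when any 1 of 5 libraries was left out, at values of -0.52 to -0.36 at 1 h (without WT 1 h A or C or any C719A 1 h library) and -0.48 to -0.36 at 2 h (without WT 2 h B or C or any C719A 2 h library). In G906D, 13 genes were higher at all times, 6 of them snoRNAs (snR39, snR39B, snR46, snR48, snR66 and snR82) and 7 tRNA genes, 3 of them with a mean count under 20 in the WT libraries, and ICR1 and tK(CUU)E1 were lower. The 1 h calls of snR48 and tK(CUU)E1 were lost without any 1 of 4 libraries each, which were WT 1 h B and C and G906D 1 h A and B for snR48 (values of 0.59 to 0.97) and WT 1 h A and B and G906D 1 h A and C for tK(CUU)E1 (-0.94 to -0.79).

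Among the mRNAs of snoRNP core and exosome proteins, most were higher in the mutants at 0 and 2 h and fewer at 1 h. Of the 8 snoRNP core protein mRNAs, 5 were higher and none lower in each mutant at 0 h (median 0.80 in C719A and 0.86 in G906D), beside 27% and 30.9% of all genes called higher. At 1 h none was called in C719A (median 0.16) and only SNU13 in G906D (median 0.24), beside 17.3% and 16.3% of all genes, and at 2 h all 8 were higher (median 1.02 and 1.29), beside 27.5% and 31.9%. All 13 nuclear exosome mRNAs were higher at 0 h in both mutants (median 0.57 and 0.59). At 1 h 5 were higher and DIS3 was lower in C719A and 6 were higher in G906D, and at 2 h 9 and 11 were higher. Of the 5 TRAMP mRNAs, 3 were higher at 0 h in each mutant, and at 1 h 1 was higher in each and PAP2 was lower in C719A. Among the exosome mRNAs counted as higher in G906D at each time were SKI6, MTR3 and RRP46, which are encoded on chromosome VII. Their log2 fold changes in G906D were 2.04, 1.39 and 1.71 at 0 h and 1.30, 1.42 and 1.16 at 1 h. In C719A at 0 h they were 0.91, 0.79 and 0.48. Most genes of chromosome VII were higher in G906D, as described below. Of the 6 signal recognition particle protein mRNAs, 3 were higher and 1 lower in C719A at 0 h and 2 were higher and 1 lower in G906D, beside the lower SCR1. Of the 11 RNase P and MRP protein mRNAs, 7 were higher and 2 lower in C719A, and 6 were higher and 1 lower in G906D. Those higher in G906D included POP6 (1.80), also on chromosome VII.

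The tRNA genes were more often higher than lower in the mutants. Against WT they were higher in 12 of 42 cases and lower in none in C719A at 0 h (median 0.61), in 12 and none at 1 h (median 0.54) and in 16 and none at 2 h (median 0.60). In G906D 12 were higher and 3 lower at 0 h (median 0.32), 12 and 2 at 1 h (median 0.49), and 18 and 1 at 2 h (median 0.84). In all genes, 27%, 17.3% and 27.5% were called higher in C719A at 0, 1 and 2 h and 30.9%, 16.3% and 31.9% in G906D. Called lower were 26.7%, 18.4% and 28.9% in C719A and 33.2%, 15% and 33.2% in G906D. At 0 h the share of tRNA genes called higher was near that of all genes in both mutants. Of the 42, 6 had a mean count under 20 in the WT libraries and passed only through the mutants. Of the other 36, 8, 7 and 10 were higher in C719A at 0, 1 and 2 h and none lower. In G906D 8, 7 and 12 were higher and 3, 2 and 1 lower. Medians over the 36 were 0.53, 0.35 and 0.46 in C719A and 0.25, 0.31 and 0.73 in G906D. This alternative was added after the data were seen. Without WT 0 h B, the counts at 0 h were 24 higher and 1 lower in C719A and 23 higher and 2 lower in G906D. A tRNA gene is counted here through reads that survived poly(A) selection, and 29 of the 34 matched genes have other exact copies in R64, up to 15 per sequence, so the assignment of reads among copies is uncertain. Charging of tRNA is not measured by these counts.

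The 4 tRNA genes described next had an LTR of the retrotransposon Ty3, known as a sigma element, ending 16 to 18 bases upstream. Ty3 integrates at the start sites of genes transcribed by RNA polymerase III, and its LTR holds the promoter and the 3′ end of its own transcript. The genes are shown from R64 (RefSeq) on the sense strand with the 45 bases upstream, capitals marking the end of the LTR. They are tR(UCU)G3 (chrVII:736295-736411, plus strand), tH(GUG)E2 (chrV:434541-434657, minus strand), tR(ACG)L (chrXII:374310-374427, plus strand) and tA(AGC)P (chrXVI:856857-856974, plus strand).
tR(UCU)G3: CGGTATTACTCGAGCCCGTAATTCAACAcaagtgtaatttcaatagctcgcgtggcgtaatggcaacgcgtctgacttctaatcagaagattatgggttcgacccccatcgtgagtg
tH(GUG)E2: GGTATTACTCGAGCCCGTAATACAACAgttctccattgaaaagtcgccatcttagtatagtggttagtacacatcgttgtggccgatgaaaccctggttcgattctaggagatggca
tR(ACG)L: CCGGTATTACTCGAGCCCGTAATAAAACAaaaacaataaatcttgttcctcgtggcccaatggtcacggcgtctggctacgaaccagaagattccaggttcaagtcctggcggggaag
tA(AGC)P: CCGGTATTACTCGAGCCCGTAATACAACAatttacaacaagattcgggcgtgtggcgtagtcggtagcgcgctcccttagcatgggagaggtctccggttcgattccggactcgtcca

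The mean count over the 9 WT libraries was 8.78 for tR(UCU)G3, 3.89 for tR(ACG)L and 2.11 for tA(AGC)P, so these 3 genes passed the threshold of 20 only through the mutant libraries and had to be higher there. Their differences from WT are a description and are given without a test. tR(UCU)G3 decodes AGA arginine codons. It held 0.668, 1.82 and 0.0699 CPM in WT at 0 h, 0.237, 0.251 and 0.569 CPM at 1 h and 0.405, 0.137 and 0.157 CPM at 2 h. In C719A it held 4.42, 4.48 and 2.50 CPM, 24.2, 16.9 and 24.6 CPM and 26.6, 21.6 and 32.8 CPM, and in G906D 10.7, 7.75 and 7.89 CPM, 12.7, 10.4 and 10.9 CPM and 35.7, 30.9 and 28.2 CPM. All mutant libraries were above all WT libraries at each time, and the gap widened with heat. At 2 h the level was 114-fold that of WT in C719A (log2 6.83 ± 0.43) and 133-fold in G906D (log2 7.06 ± 0.43). These folds rest on 14 counts in the WT libraries at 2 h.

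tA(AGC)P, an alanine tRNA gene of the family that AlaRS charges, held 0.152, 0.228 and 0.105 CPM in WT at 2 h, 3.29, 3.69 and 5.89 CPM in C719A and 2.53, 3.62 and 2.19 CPM in G906D. Summed over 3 libraries these were 10, 223 and 136 counts, giving ratios, scaled to library size, of 25.6 for C719A (95% counting interval 13.7 to 54.2) and 15.4 for G906D (8.12 to 32.8), which cover counting error only. At 0 h it had 2 counts in WT against 36 in C719A and 31 in G906D. tR(ACG)L, another arginine tRNA gene, held 0.152, 0.137 and 0.262 CPM in WT at 2 h, 5.52, 5.57 and 7.43 CPM in C719A and 3.50, 1.33 and 3.48 CPM in G906D. Its 11 counts in WT stood against 322 in C719A (ratio 33.7, 18.6 to 68.1) and 134 in G906D (ratio 13.8, 7.47 to 28.3). At 0 h the log2 fold change of tR(ACG)L was 0.94 in C719A and 0.05 in G906D, and the libraries of each mutant overlapped those of WT. tH(GUG)E2, a histidine tRNA gene, held 1.22, 6.74 and 1.47 CPM in WT at 0 h and 5.41, 3.70 and 5.06 CPM in C719A, which overlapped, and at 2 h 0.657, 0.684 and 0.785 CPM in WT, 8.57, 8.32 and 11.7 CPM in C719A and 8.45, 4.59 and 3.54 CPM in G906D, which did not. The log2 fold changes of tH(GUG)E2 at 2 h were 3.74 ± 0.49 and 2.96 ± 0.50, and its mean count in the WT libraries was above the threshold.

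In all, 8 of the 34 matched tRNA genes (23.5%) had a Ty3 LTR within 20 bases, each time upstream, against 34 of 275 R64 tRNA genes (12.4%). This grouping was made after the values were seen, and 3 of the 8 are the genes that passed the threshold only through the mutant libraries, so it is given without a test. At 2 h against WT, 5 of the 8 were higher in C719A (median 2.46) and 4 in G906D (median 1.97), beside 11 higher and none lower of the other 26 in C719A (median 0.60, highest 2.70) and 10 higher and 1 lower in G906D (median 0.69, highest 2.69). The other 4 with such an LTR, tA(UGC)O, tN(GUU)N1, tW(CCA)P and tY(GUA)D, had values of 0.02, 1.02, -0.51 and 1.18 in C719A and -0.50, 0.69, -0.54 and 0.98 in G906D. Over the 8 genes the values ran from -0.51 to 6.83 in C719A and from -0.54 to 7.06 in G906D. The highest of the other 26 in C719A, tL(GAG)G, also passed the threshold only through the mutant libraries. FUS1 is a gene of the mating pheromone response, and Ty3 transcription is known to be induced by pheromone in haploid cells. FUS1 held 29.4, 39.2 and 31.6 CPM in WT at 2 h, 455, 447 and 600.4 CPM in C719A and 406, 383 and 334 CPM in G906D. Its log2 fold change was 1.89, 2.66 and 3.90 in C719A at 0, 1 and 2 h and 2.22, 2.30 and 3.49 in G906D. FUS1 was called higher in both mutants at each time. The part of the pheromone response, and of transcripts that start in an LTR, in the tRNA values was not tested.

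**Figure D3:**
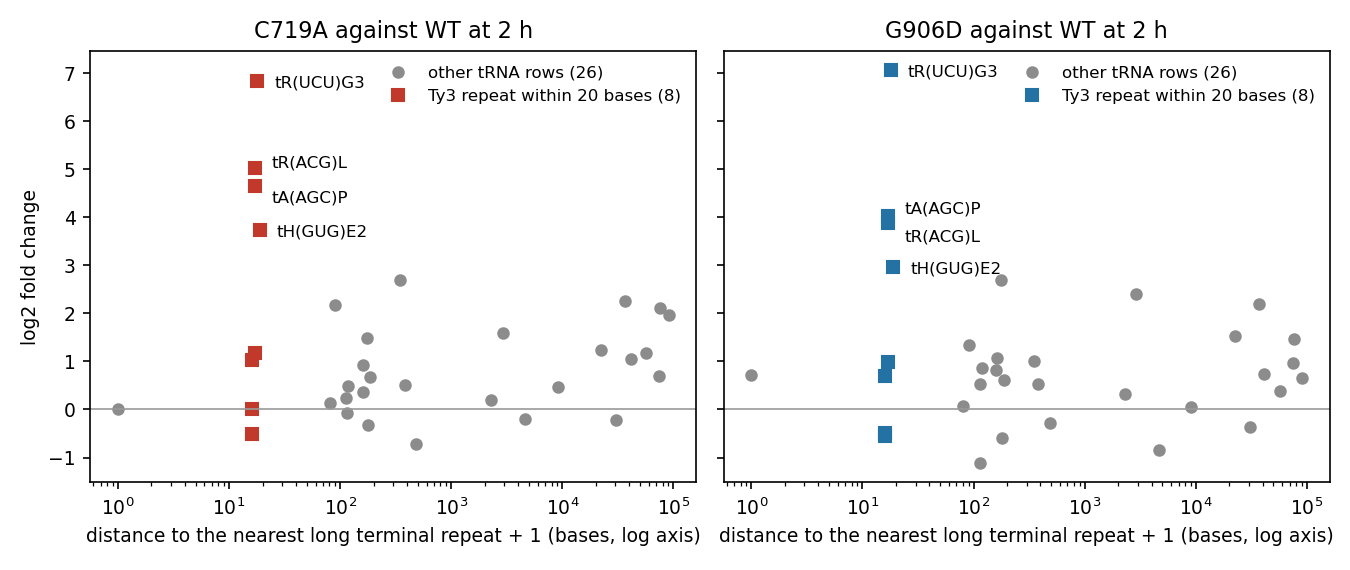
Log2 fold change against WT at 2 h of the 34 matched tRNA genes in C719A and G906D, against the distance in bases to the nearest LTR of any Ty family plus 1 (log axis). Squares are the 8 genes with a Ty3 LTR within 20 bases and grey points the other 26. The squares reach 6.83 in C719A and 7.06 in G906D, and the grey points reach 2.70 and 2.69. Of the squares, tR(UCU)G3, tR(ACG)L and tA(AGC)P passed the count threshold only through the mutant libraries and had to be higher there. So did the highest grey point in C719A, tL(GAG)G, and the contrast is a description. In C719A 3 squares and in G906D 4 are not called.

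Other tRNA genes lay, by R64 position, near mRNA genes whose counts also differed. tL(CAA)C, a leucine tRNA gene near LEU2, held 9.17, 20.1 and 12.1 CPM in WT at 0 h, 35.6, 27 and 31.9 CPM in C719A and 16.0, 14.5 and 17.8 CPM in G906D. In C719A every library was above every WT library, and the log2 fold change was 1.19, 1.97 and 2.17 at 0, 1 and 2 h, beside 2.30, 1.63 and 2.13 for LEU2. In G906D it was 1.34 at 2 h, beside 1.10 for LEU2. LEU2 is also the marker of the ALA1 plasmids, and the mutants were selected on medium without leucine. Its reads are therefore expected from the plasmid, and its values are not taken as those of a chromosomal neighbour of tL(CAA)C. tF(GAA)H1, a phenylalanine tRNA gene beside PCL5, differed by 1.71 at 0 h and 1.98 at 2 h in C719A, and PCL5 by 1.55 and 1.44. The 2 genes did not run in parallel elsewhere. At 1 h in C719A the tRNA gene was at 0.48 (not called) and PCL5 at 1.20, and in G906D the tRNA gene was not called at any time (-0.11, -0.61 and 0.66), while PCL5 was higher (0.98, 0.63 and 1.17). In R64 the distance was 351 bases for tL(CAA)C and 154 bases for tF(GAA)H1. Whether reads of the neighbouring transcript were counted on these tRNA genes was not tested.

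With heat the tRNA genes moved both ways. Of the 42, 3 (tP(UGG)N2, tV(AAC)L and tY(GUA)M1) had a mean count under 20 in the heated libraries. They passed the threshold only through the libraries at 0 h and had to be lower with heat on average. The counts and medians below include them and are a description. In WT at 2 h 11 rose and 13 fell (median 0.10), in C719A 14 and 9 (median 0.21; 12 and 3 without C719A 0 h A) and in G906D 17 and 7 (median 0.39). Of all genes, 35.7% were called higher and 33.9% lower in WT. The shares were 34.8% and 32.3% in C719A and 35% and 32% in G906D. The largest tRNA rises in WT were those of tP(AGG)C (2.44 ± 0.37 on the log2 scale), tA(UGC)O (2.12) and tL(UAG)L1 (1.95). These are genes for proline, alanine and leucine tRNAs. The valine tRNA gene tV(AAC)L, which passed the threshold only through the libraries at 0 h, had values of -3.52 in WT, -2.55 in C719A and -2.88 in G906D. In the mutants the largest rises included tR(ACG)L, at 3.25 in C719A and 2.99 in G906D, and tA(AGC)P, at 2.53 and 1.88.

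Among the long noncoding RNAs, SRG1 differed most. SRG1 is transcribed from intergenic DNA across the promoter of SER3, a serine biosynthesis gene, and its transcription is known to repress SER3 when serine is plentiful. It overlaps the SER3 gene by 77 bases on the same strand. At 0 h it held 108, 36.4 and 65.5 CPM in WT, 31.3, 19.2 and 28.6 CPM in C719A and 86.9, 80.6 and 71.3 CPM in G906D. C719A was below WT without overlap, whereas G906D lay within the WT range. At 2 h WT held 70.0, 54.6 and 65.5 CPM, C719A 15.4, 12.2 and 15.8 CPM and G906D 30.1, 25.8 and 29.8 CPM, and both mutants were below WT. In C719A the log2 fold change was -1.42 ± 0.24, -2.44 ± 0.25 and -2.13 ± 0.25 at 0, 1 and 2 h (adjusted p = 3.07e-05, 4.60e-08 and 1.27e-07, edgeR's quasi-likelihood test). In G906D it was 0.18 ± 0.23, -1.66 ± 0.24 and -1.15 ± 0.24 (adjusted p = 0.501, 4.40e-06 and 0.000163, edgeR's quasi-likelihood test). Heat left SRG1 at -0.15 in WT (adjusted p = 0.574, edgeR's quasi-likelihood test) and lowered it by 1.48 in G906D, a difference in response of -1.33 ± 0.33 (adjusted p = 0.00457, edgeR's quasi-likelihood test).

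SER3 did not move opposite to SRG1 in these libraries. It held 204, 155 and 196 CPM in WT at 2 h, 54.2, 55.5 and 56.7 CPM in C719A and 80.8, 88.6 and 98.8 CPM in G906D. Its log2 fold change in C719A was -0.11 at 0 h (adjusted p = 0.472, edgeR's quasi-likelihood test), -1.59 at 1 h and -1.74 at 2 h, and in G906D -0.09, -1.25 and -1.05. At 1 and 2 h SRG1 and SER3 were thus both lower in both mutants, and at 0 h in C719A SRG1 was lower while SER3 was not called. The sources do not state strand, and reads over the shared 77 bases could be counted on either gene.

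ICR1, transcribed across the promoter of the flocculin gene FLO11, held 19.5, 15.1 and 19.8 CPM in WT at 0 h, 13.0, 10.1 and 12.2 CPM in C719A and 12.2, 10.2 and 9.01 CPM in G906D. It was lower in G906D at 0, 1 and 2 h (-0.78, -0.72 and -0.67 on the log2 scale), and in C719A at 0 h (-0.63). It overlaps PWR1 on the opposite strand and YIR020C on the same strand, so without strand its reads cannot be told apart from theirs. RUF20 was higher in G906D at 0 h (0.76) and 2 h (0.71) and fell with heat in each strain, by 0.94 in WT, 0.58 in C719A and 0.98 in G906D at 2 h. The fall in C719A was lost without C719A 0 h C, at -0.46 (adjusted p = 0.0612, edgeR's quasi-likelihood test). RUF21 was called higher at 0 h in C719A (1.09) and G906D (0.88), with 0.607, 1.62 and 1.19 CPM in WT, 2.18, 1.68 and 3.39 CPM in C719A and 1.98, 2.36 and 1.89 CPM in G906D, and in neither mutant at 1 or 2 h. These calls were lost without WT 0 h A (0.77 in C719A and 0.57 in G906D), in C719A also without C719A 0 h C (0.77), and in G906D without WT 0 h C (0.92) or G906D 0 h B (0.78). RUF23 and RNA170 were not called against WT in either mutant at any time. The 5S rRNA entry RDN5-1 was called higher in G906D at 1 h (1.52), and this call was lost without any 1 of 5 libraries (all but G906D 1 h B), at 0.81 without G906D 1 h C (adjusted p = 0.276, edgeR's quasi-likelihood test) and 1.47 to 1.58 without each of the others.

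The snoRNAs that were higher in G906D at all times were mostly on chromosome VII. Of the 115 genes, 14 lie there by their R64 position or, for unmatched tRNA genes, by the chromosome letter in their name, and 3 of them (tR(UCU)G3, tD(GUC)G2 and tL(GAG)G) had a mean count under 20 in the WT libraries. In G906D 10 of the 14 were higher at 0 h (median 1.20), 11 at 1 h (median 1.20) and 12 at 2 h (median 1.74), and none was lower. Of the 101 elsewhere, 20 were higher and 16 lower at 0 h (median 0.08), 9 and 9 at 1 h (median -0.15), and 25 and 5 at 2 h (median 0.38). The other genes of chromosome VII were also higher, 451 of 548 at 0 h with a median of 0.92, 488 with a median of 0.96 at 1 h and 457 with a median of 0.96 at 2 h. Genes on other chromosomes had medians of -0.09, -0.05 and -0.08. All 5 snoRNAs on chromosome VII were higher at each time, with medians of 1.16, 0.93 and 1.64. In C719A the other genes of chromosome VII had medians of 0.03, 0.02 and 0 at 0, 1 and 2 h. Of the 14 noncoding genes there, 4 were higher and 1 lower in C719A at 0 h (median 0.39) and at 1 h (median 0.18), and 8 were higher and none lower at 2 h (median 1.07).

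The C/D snoRNA snR48 held 7.47, 7.61 and 4.33 CPM in WT at 0 h and 16.0, 15.6 and 14.3 CPM in G906D, and 1.01, 0.684 and 0.889 CPM and 4.71, 6.58 and 5.22 CPM at 2 h. The G906D libraries were above the WT libraries at both times, with a log2 fold change of 1.24 ± 0.31 at 0 h and 2.67 ± 0.38 at 2 h (adjusted p = 1.68e-06, edgeR's quasi-likelihood test). The H/ACA snoRNA snR46 held 17, 17.6 and 12.9 CPM in WT at 0 h and 41.6, 42.8 and 46.6 CPM in G906D, and 4.75, 5.93 and 4.81 CPM and 13.8, 12.9 and 9.60 CPM at 2 h. The H/ACA snoRNA snR82 held 59.4, 38 and 35.0 CPM and 95.9, 82.4 and 86.7 CPM at 0 h, and 11.6, 15.8 and 16.7 CPM and 36.2, 31.9 and 36.9 CPM at 2 h, again without overlap. Their log2 fold changes were 1.46 and 1 at 0 h and 1.22 and 1.25 at 2 h. snR66, which lies on another chromosome, was higher by 0.43, 0.73 and 0.94 at 0, 1 and 2 h.

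**Figure D4:**
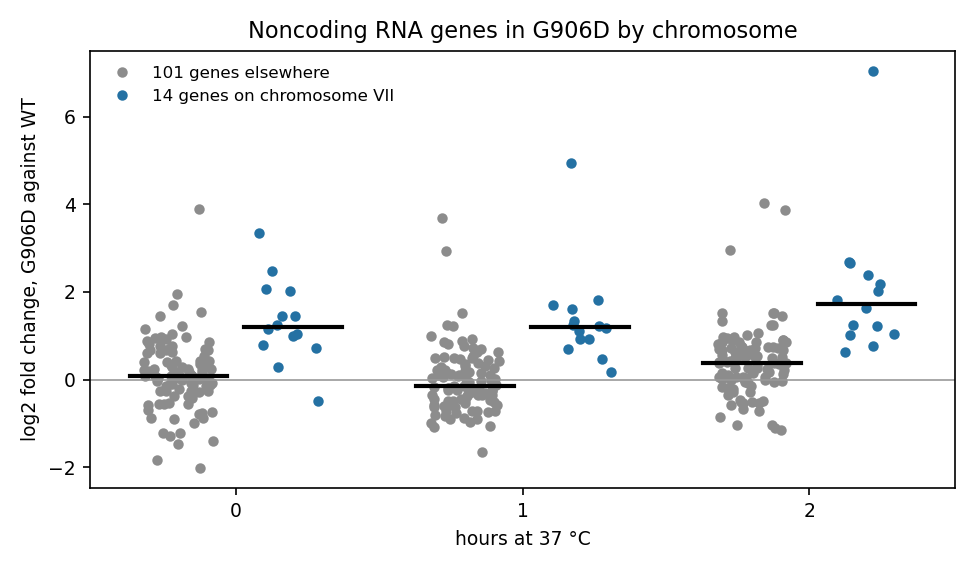
Log2 fold change of G906D against WT at 0, 1 and 2 h at 37 °C for the 101 noncoding RNA genes on other chromosomes and the 14 on chromosome VII. Points are genes and bars are medians, which are 1.20, 1.20 and 1.74 on chromosome VII and 0.08, -0.15 and 0.38 elsewhere.

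The share of each library's raw counts on the 115 genes scales the same data by library size alone, without the TMM factors. In WT it was 0.288% ± 0.0922 (SD, n = 3) at 0 h, 0.124% ± 0.0272 at 1 h and 0.103% ± 0.0197 at 2 h. In C719A it was 0.157% ± 0.0197, 0.0873% ± 0.00238 and 0.126% ± 0.00967, and in G906D 0.196% ± 0.0209, 0.0994% ± 0.0144 and 0.118% ± 0.00824. At 0 h the C719A libraries did not overlap those of WT (two-sided exact permutation p = 0.1, the smallest that 3 against 3 libraries allow), whereas those of G906D did (exact p = 0.2). With 3 libraries a group, no share could reach the threshold of 0.05. The structured RNAs took 0.103% of counts in WT at 0 h, 0.0400% in C719A and 0.0410% in G906D, without overlap between mutant and WT libraries. The tRNA genes took 0.0116% at 2 h in WT, 0.0272% in C719A and 0.0215% in G906D, also without overlap. Of the 42 tRNA genes, 6 passed the count threshold only through the mutant libraries, so this tRNA difference is a description. The snoRNAs went from 0.166% to 0.0525% between 0 h and 2 h in WT, from 0.0973% to 0.0569% in C719A and from 0.137% to 0.0599% in G906D.

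**Figure D5:**
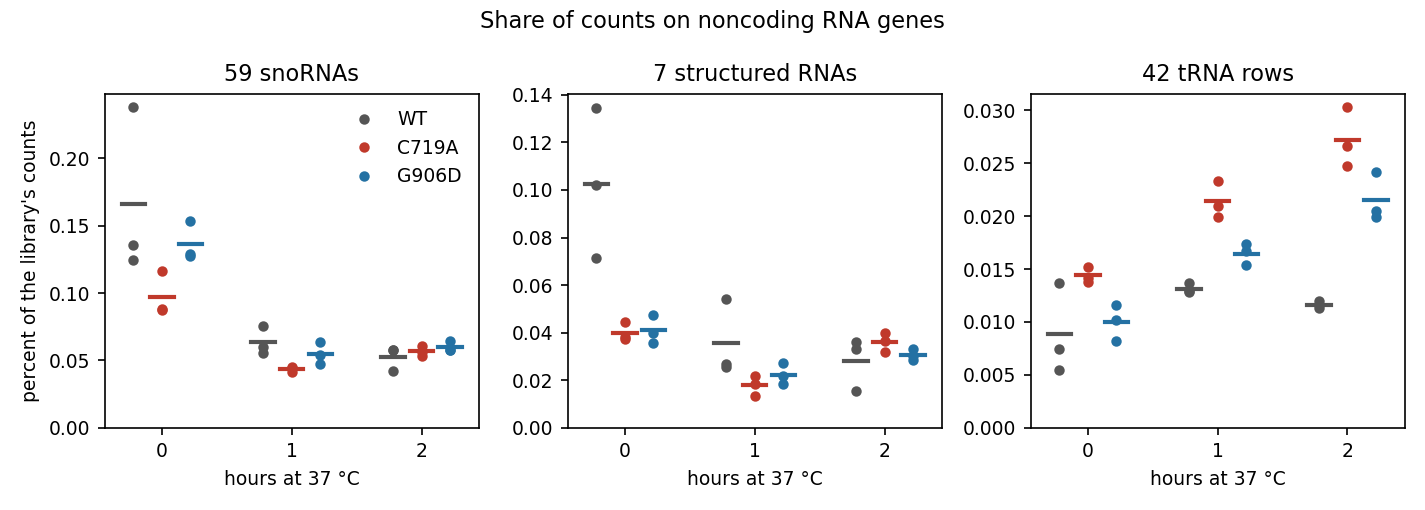
Percent of each library's raw counts on 59 snoRNAs, 7 structured RNAs and 42 tRNA genes by hours at 37 °C in WT, C719A and G906D. Points are libraries and bars are group means. Of the 42 tRNA genes, 6 passed the count threshold only through the mutant libraries. For snoRNAs the WT mean goes from 0.166% at 0 h to 0.0525% at 2 h, while for tRNA genes the WT mean at 2 h, 0.0116%, is below 0.0272% in C719A and 0.0215% in G906D.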

How the data were processed

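RNA of 9 groups (WT, C719A and G906D at 0, 1 and 2 h of 37 °C, 3 libraries each) was enriched with oligo(dT) and sequenced. The submitters' processing notes name TopHat2 and Bowtie2. The counting tool, genome build and strand are not given in the sources used here. The authors deposited raw counts per gene, which were tested, and FPKM values, used only as levels per length. The deposited FPKM values followed from the counts and gene lengths for 5368 genes of at least 100 counts (largest relative difference 0.000341).

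Counts were filtered with filterByExpr, TMM-scaled and fitted over all 27 libraries and 9 groups by edgeR 4.0.16 (glmQLFit, glmQLFTest) with R 4.3.3 and limma 3.58.1. Benjamini-Hochberg adjustment ran over 6386 genes. The common dispersion was 0.0125 and TMM factors were 0.719 to 1.15. Genes were called at an adjusted p under 0.05. Heat responses of mutant and WT were compared by interaction terms at 2 h. On simulated counts for C719A against WT at 0 h (6283 genes), 50 of 50 genes changed by a fold of 2, 49 of 50 by a fold of 0.5, 44 of 50 by a fold of 1.5 and 34 of 50 by a fold of 0.667 were recovered, with 8 false among 185 calls. Shares of counts were compared by exact two-sided permutation. Intervals are 95% and cover counting error only. Other tools were DESeq2 1.42.0, Python 3.11.15, pandas 2.3.3 and scipy 1.17.1.

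The noncoding genes, classes and lists were chosen with earlier results of these data known. The text names every gene that is neither a snoRNA nor a tRNA, the 5 most abundant snoRNAs, up to 4 called rises and 4 called falls per comparison whose libraries do not overlap, intron snoRNAs with hosts, snoRNA clusters, genes on chromosome VII and genes near the threshold. Where many qualified, counts and medians are given instead. FUS1, SER3, LEU2 and PCL5 were named after their values were seen. Positions, introns and sequences are from R64 (RefSeq).

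Replicate libraries differed by more than sampling noise (chi-square per degree of freedom 7.05 to 121.0). Alternatives were RLE factors, library size alone, TMM without noncoding genes, 10 counts in every library, no filter, DESeq2, groups fitted alone, replicate letter as a block, count thresholds of 10 and 50, and leaving out each library. Keeping genes with a mean of 20 in the WT libraries was added after seeing the data.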

Additional observations from a re-analysis of the deposited data

Results flagged for a closer look

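The heat response at 2 h was tested for a difference between each mutant and WT by an interaction term in edgeR's quasi-likelihood test, and the genes below differed. All values are log2 differences of the response, mutant minus WT, and the calls numbered 33 in C719A and 14 in G906D over all 115 genes.

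Among the structured RNAs the difference was 2.39 in C719A and 2.77 in G906D for LSR1, 1.57 and 1.37 for NME1, 1.03 and 1.12 for RPR1, and 1.06 and 1.65 for snR19. It was 2.54 for SCR1 and 1.33 for snR14 in C719A alone among the calls. For SRG1 it was -1.33 in G906D.

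Among the snoRNAs the difference was 1.88 in C719A and 1.53 in G906D for snR17a, 1.74 and 1.29 for snR39, and 1.34 and 1.43 for snR48. In C719A it was also called for snR13 (1.66), snR30 (1.92), snR37 (1.20), snR39B (1.12), snR83 (0.73), snR86 (0.79) and snR69 (-0.90). Among the tRNA genes it was 4.68 in C719A and 3.71 in G906D for tR(UCU)G3, 4.10 and 3.83 for tR(ACG)L, 3.15 and 3.04 for tH(GUG)E2, and 0.98 and 1.12 for tL(CAA)C. tR(UCU)G3 and tR(ACG)L passed the count threshold only through the mutant libraries, so their values are a description. It was -1.48 for tP(AGG)C and 1.88 for tV(AAC)G3 in C719A.

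Several of these calls were lost when 1 of the 12 libraries was left out. In C719A this held for snR48 (9 libraries, values 1.11 to 1.47), snR86 (8, 0.41 to 0.87), snR37 (7, 0.57 to 1.22), snR83 (7, 0.39 to 0.74), snR13 (6, 1.03 to 1.64), RPR1 (5, 0.71 to 0.96), snR19 (4, 0.76 to 1.03), tP(AGG)C (4, -1.40 to -1.17) and tL(CAA)C (3, 0.60 to 0.88). In G906D it held for snR48 (10, 1.28 to 1.56), RPR1 (4, 0.80 to 1.09), tL(CAA)C (2, 0.74 to 0.98), NME1 (1, WT 0 h A, 0.93) and tR(ACG)L (1, WT 0 h C, 3.29).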

How the results depend on the processing

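The check covered 288 called values of named noncoding genes, and none changed sign under any alternative run. Values that were not called and those of mRNAs were not checked. Calls were lost in 194 of 1932 values with a library left out and 46 of 2241 under the other alternatives. With members of at least 50 counts, C719A against WT at 2 h had 18 calls (15 higher, 3 lower), and with library size alone the G906D interaction had 23 (22 higher, 1 lower). Leaving out each library gave 32 to 61, 16 to 39 and 19 to 29 calls for C719A against WT at 0, 1 and 2 h, and 40 to 53, 21 to 27 and 35 to 41 for G906D. For 1 and 2 h against 0 h it gave 64 to 76 and 77 to 83 in WT, 65 to 70 and 58 to 70 in C719A, and 70 to 77 and 76 to 80 in G906D, and for the interactions 20 to 40 in C719A and 10 to 18 in G906D. The difference in the percent of counts ranged from -0.167 to -0.0789, -0.0455 to -0.0207 and 0.011 to 0.0284 for C719A against WT at 0, 1 and 2 h, and from -0.128 to -0.0398, -0.0333 to -0.00859 and 0.00303 to 0.0205 for G906D. With heat at 1 and 2 h it ranged from -0.2 to -0.112 and -0.22 to -0.132 in WT, -0.0756 to -0.0582 and -0.0373 to -0.0199 in C719A, and -0.104 to -0.0844 and -0.0844 to -0.0662 in G906D. With library size alone the median of all genes moved to -0.37 for G906D against WT at 0 h, where that of the noncoding genes went from 0.15 to -0.19, and to 0.28 to 0.53 for the heat comparisons. The cause of these changes was not tested.

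The sources do not state whether a letter A, B or C marks the same culture followed over time. Same-letter deviations had a median correlation of 0.0369 within a strain (27 pairs, -0.399 to 0.209). Between strains it was -0.0184 (81 pairs). With 3 libraries a group, these correlations cannot decide whether libraries of a strain were paired. The block that was fitted was the replicate letter, not the culture within a strain. With it, C719A against WT had 46, 42 and 31 calls at 0, 1 and 2 h, G906D 48, 29 and 45, and the interactions 34 and 14. With genes at a mean of 20 in the WT libraries, added after seeing the data, C719A had 40, 37 and 24 calls, G906D 42, 24 and 36, and the interactions 31 and 12.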
